A study of Mus musculus with 9 samples.

Results

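The polycyclic aromatic hydrocarbon DMBA (7,12-dimethylbenz-[a]anthracene) was given at 50 nM to cultured neonatal mouse ovaries, and the response was measured on 3 DMBA arrays against 3 arrays of the acetone vehicle, 6 of the 9 arrays in the series. The arrays were taken by their titles, and every probe entered. The ovaries came from Swiss mice of postnatal day 3 to 4, a stock that is usually kept outbred, and were cultured for 96 hours (4 days). The DMBA ovaries received DMBA at 50 nM, a dose that was picked in pilot work for its overt toxicity, and the acetone ovaries received 0.01% acetone alone. Ovaries of both groups grew in medium with serum and with the growth factors bFGF, LIF and SCF, so every level below is that of an ovary under these factors. The other 3 arrays received benzo[a]pyrene (BaP) at 1 uM and are used here only for values set side by side. Nothing in the labels ties the 3 arrays of a group to different mice, pools or culture wells. The p-values therefore reflect only how these arrays vary, which may be technical variation.

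DMBA is a model carcinogen that does little until cells oxidise it. The aryl hydrocarbon receptor binds such compounds and switches on the cytochrome P450 genes that convert them to diol epoxides, which bind DNA. Damaged DNA activates p53, which induces Cdkn1a and a set of arrest and death genes. The neonatal ovary is packed with primordial follicles, each a resting oocyte in a sheet of flat granulosa cells, and DMBA is known for destroying them in rodents.

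A level here is the log2 of a normalised probe signal, and 1 probe stood for each of 17889 genes, the brightest. Differences are DMBA minus acetone on that log2 scale, so 1 is a 2-fold change. "Rose" and "fell" are written only for genes past an adjusted p of 0.05 over all genes in limma. Values per array are given in the order of replicates 1, 2 and 3. A level near 6 is close to the lowest signals, where the size of a difference, unlike its sign, depends on the background correction. In whole ovaries, fewer cells of a type and less RNA per cell cannot be told apart.

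The arrays carried the transcripts of an ovary. Of the marker genes measured, 12 of 13 for oocytes, 8 of 9 for granulosa cells and 6 of 6 for stroma lay above the median level of all genes. Of 6 theca and interstitial markers and 5 endothelial markers, 0 and 1 did. Lymphocyte markers did so in 1 of 6. Markers of oviduct and uterine gland were above it in 4 of 5, with Lcn2 at percentile 97.7 and Ltf at percentile 94.7 of all levels. Wfdc2 was at percentile 77.0, Foxj1 only at 51.5, and Ovgp1 below the median at 48.5. The median signal was 105.2 to 126.0 on DMBA arrays and 105.8 to 133.7 on acetone arrays.

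DMBA 3 stood apart from the other arrays. On the first principal component, with 40.25% of the variance, it lay at 23.88, while DMBA 1 was at -7.23, DMBA 2 at 0.084 and the acetone arrays between -7.12 and -3.79. The second component (28.29%) placed DMBA 1 at 14.59, DMBA 2 at 9.82 and DMBA 3 at -0.84, above the acetone arrays at -5.95 to -10.65. Over genes, deviations from the group mean spread most on DMBA 3 (SD 0.153), with an SD of 0.079 to 0.123 on the other arrays. Among the genes lowest on DMBA 3 was Tmx4, a thioredoxin-related membrane protein, at 9.89 on DMBA 3, 11.27 and 10.97 on DMBA 1 and 2, and 10.81, 10.92 and 10.99 on the acetone arrays. Vcl, the adhesion protein vinculin, was at 9.74 on DMBA 3, 10.87 and 10.73 on DMBA 1 and 2, and 10.56, 10.64 and 10.57 on the acetone arrays, and Eif3a, a translation initiation factor, at 8.46 on DMBA 3, 9.76 and 9.45 on DMBA 1 and 2, and 9.45, 9.48 and 9.47 on the acetone arrays. Among the highest was Bag6, a chaperone-like quality control protein, at 11.05 on DMBA 3, 9.70 and 9.89 on DMBA 1 and 2, and 9.71, 9.82 and 9.92 on the acetone arrays. In these 4 genes DMBA 3 was at least 0.98 log2 units from both other DMBA arrays, which lay nearer to the acetone arrays. Results are therefore given with and without DMBA 3.

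**Figure D1:**
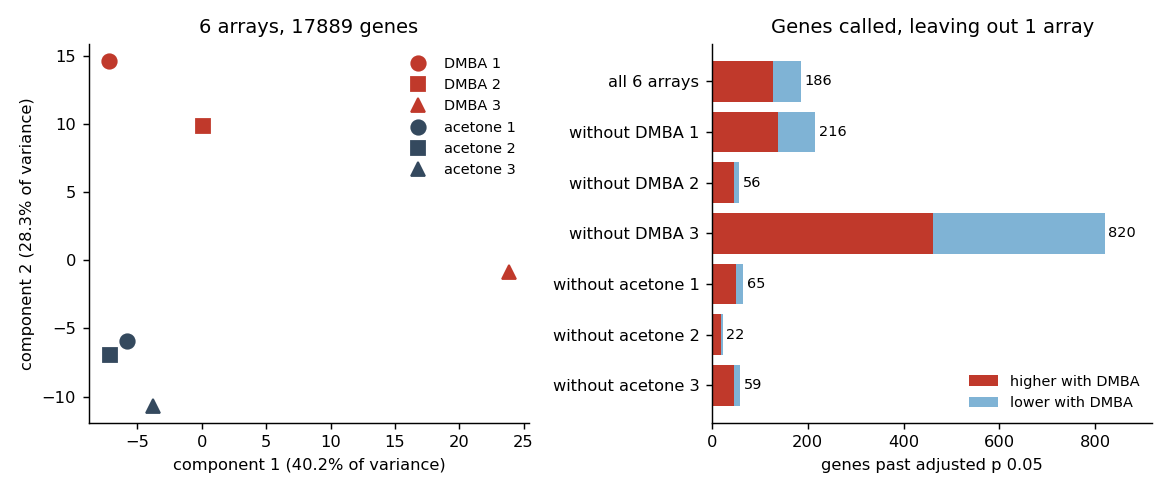
Left, the 6 arrays on the first and second principal components of 17889 genes (DMBA red, acetone dark blue, replicates by symbol). Right, the number of genes called higher or lower with DMBA with all 6 arrays (186) and with each array left out in turn, from 22 without acetone 2 to 820 without DMBA 3.

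With all 6 arrays, 186 of 17889 genes (1.04%) were called, 128 higher (0.716%) and 58 lower (0.324%). These shares are the background for every gene list below, where a single call describes that gene and not its list. The arrays of the groups did not overlap for any of these 186, and over all genes they did not overlap in 15.7%. The called genes were mostly well expressed: 119 of the 128 higher and 54 of the 58 lower ones lay above the median level. The median difference was 0.63 among genes called higher and -0.50 among genes called lower, and -0.01 over all genes. Of the called genes, 74 rose and 17 fell by at least 1.5-fold. Without DMBA 3, 820 genes (4.58%) were called, 461 higher (2.58%) and 359 lower (2.01%), and all 186 remained among them. The count depended on single arrays of either group. It was 216 without DMBA 1, 56 without DMBA 2, and 65, 22 and 59 without acetone 1, 2 and 3, and it was 3 (1 higher, 2 lower) with median scaling in place of quantile normalisation.

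**Figure D2:**
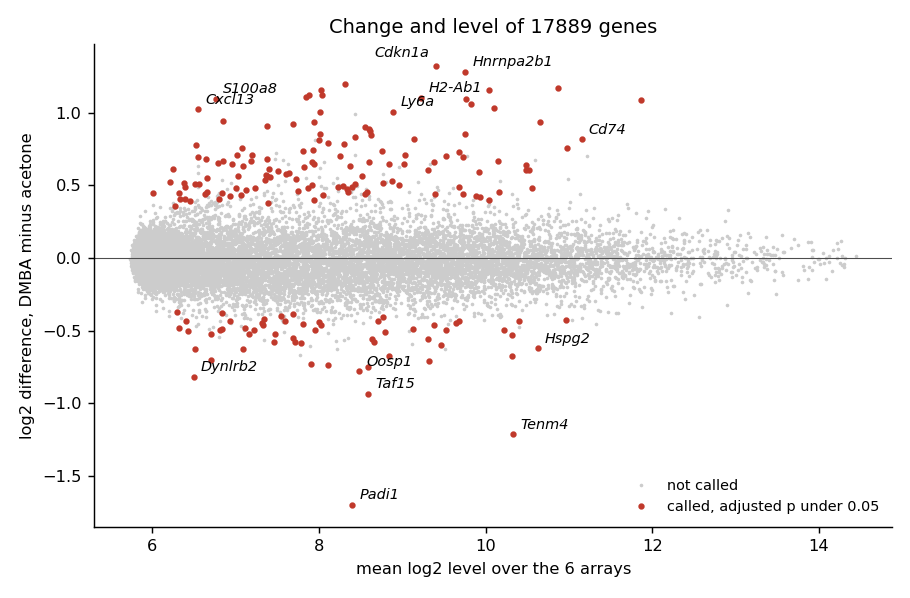
Each point is a gene, with its mean log2 level over the 6 arrays on the x axis and its log2 difference (DMBA minus acetone) on the y axis; red points passed an adjusted p of 0.05. Called genes lie mostly above the median level and reach from -1.70 (Padi1) to 1.32 (Cdkn1a).

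A set of 21 genes was called in all 6 fits that left out an array, 17 higher and 4 lower. Among the higher ones were the cell cycle inhibitor Cdkn1a, the replication helicase subunit Mcm7, the purine enzyme Adss, and the RNA-binding proteins Hnrnpa2b1, Ddx5 and Eif4b. The invariant chain Cd74, the surface antigen Ly6a, the chemokine Cxcl13 and the calcium-binding S100a8 also belonged to it. Among the lower ones were Padi1, Tenm4 and Dynlrb2. All 186 called genes kept their sign in all 6 of these fits, which the lack of overlap between their groups fixes in advance. The other 165 lost the call in at least 1 of these fits.

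The largest increase of all genes was that of a p53 target. Cdkn1a, which encodes the cyclin-dependent kinase inhibitor p21, had levels of 9.97, 9.87 and 10.37 on the DMBA arrays, against 8.71, 8.86 and 8.67 on the acetone arrays. Every DMBA array was above every acetone array, by at least 1.01 log2 units, and DMBA 3 was the highest. The gene rose 2.50-fold (log2 1.32, SE 0.12, adjusted p = 0.00123), with a log2 difference of 1.17 without DMBA 3. Its other probes gave 0.84 (called over all probes, of which 1.05% were called) and 0.74 (adjusted p = 0.0592). Phlda3, a p53-induced inhibitor of AKT signalling, was at 8.93, 8.90 and 9.32 on the DMBA arrays, against 8.12, 8.28 and 8.21 on the acetone arrays. It too was highest on DMBA 3, with no overlap, and rose by 0.85 (0.71 without DMBA 3); the call was lost without acetone 1, 2 or 3. A dimmer Phlda3 probe gave 0.26 (adjusted p = 0.307). Igfbp3, a binding protein for insulin-like growth factors, rose by 0.43, at 7.27, 7.17 and 7.38 on the DMBA arrays, against 6.93, 6.82 and 6.78 on the acetone arrays.

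These 3 were the members called among 49 measured p53 targets (3 higher, 0 lower, median 0.08). The count was 1 without each acetone array, 2 without DMBA 1 or DMBA 2, and 8 higher and 0 lower without DMBA 3. Trp53inp1, a stress-induced p53 partner, stood at 0.47 (adjusted p = 0.0874) and Thbs1, a matrix inhibitor of vessel growth, at 0.47 (adjusted p = 0.0983). Without DMBA 3 they were called, at 0.54 and 0.54. Mdm2, the ligase that degrades p53, was at 10.24, 10.17 and 10.09 on the DMBA arrays, against 10.19, 10.33 and 10.28 on the acetone arrays. Its arrays overlapped between the groups, with a difference of -0.10 (95% interval -0.28 to 0.08). The pro-apoptotic Bax was at 9.58, 9.77 and 10.16 on the DMBA arrays, against 9.62, 9.67 and 9.76 on the acetone arrays, where DMBA 3 stood above all other arrays (0.15, and -0.01 without DMBA 3). Bbc3 (0.11) and Pmaip1 (0.10), which encode the death proteins PUMA and NOXA, and Trp63 (0.004), the guardian of the oocyte genome, did not pass.

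The promoter of Cdkn1a is shown because it holds a p53 consensus site. The sequence runs from 250 bases before to 50 bases after a start site of the gene, from RefSeq on GRCm38.p6, at chr17:29090729-29091028 on the plus strand, with the match in capitals.
Cdkn1a: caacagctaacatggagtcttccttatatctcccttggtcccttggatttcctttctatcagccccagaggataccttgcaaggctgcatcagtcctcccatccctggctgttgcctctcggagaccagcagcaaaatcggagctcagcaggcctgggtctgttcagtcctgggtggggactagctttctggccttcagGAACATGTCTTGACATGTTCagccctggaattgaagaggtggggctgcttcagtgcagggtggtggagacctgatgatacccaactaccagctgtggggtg
The match spans positions -51 to -32 from the start site. Both strands were searched for 2 decamers without a spacer, with at most 2 mismatches. Such a match was in 0.798% of 32851 promoter windows. By gene, it was in 0.913% of 13684 tested genes with a window, in 5 of 37 such p53 targets, and in 1 of the 3 called ones. The other listed start of Cdkn1a (chr17:29093519-29093818) and the windows of Phlda3 and Igfbp3 held no match. A match is a description of the sequence and no evidence of binding.

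In the cell cycle list, 2 of 52 genes rose (Cdkn1a and Mcm7) and 0 fell, with a median of 0.04, or -0.03 with median scaling. Mcm7 was at 7.12, 7.14 and 7.10 on the DMBA arrays, against 6.49, 6.48 and 6.41 on the acetone arrays, a tight separation on every array, and rose by 0.66 (SE 0.07). Without DMBA 3, 5 rose and 1, the spindle checkpoint kinase gene Bub1b (-0.32), fell. Of 62 DNA repair and checkpoint genes, 0 were called in either direction, with 3 higher and 5 lower at an unadjusted p under 0.05 (4.27% and 5.95% over all genes), and without DMBA 3 the counts were 3 and 4. Poli, a translesion polymerase, stood at -0.44 (adjusted p = 0.0583) and was called without DMBA 3, at -0.35. Of 38 core apoptosis genes, 0 were called (1 higher and 2 lower at an unadjusted p under 0.05). The death domain receptor Tnfrsf1a had the largest difference there (0.58, adjusted p = 0.0818) and was called without DMBA 3 (0.40).

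The aryl hydrocarbon receptor and its battery gave 1 call among 15 measured genes (median 0.07). It was Nfe2l2, which encodes NRF2, the master regulator of antioxidant genes, at 7.93, 7.99 and 7.75 on the DMBA arrays, against 7.40, 7.26 and 7.28 on the acetone arrays. DMBA arrays lay at least 0.35 above the acetone arrays, and the gene rose by 0.58 (adjusted p = 0.0118). It was called without DMBA 1 or DMBA 3, and not without DMBA 2 or any single acetone array. Without acetone 1 the list still gave 1 call, that of another gene. Ugt1a6a, a glucuronidating enzyme and classic receptor target, was at 7.51, 7.85 and 7.83 on the DMBA arrays, against 7.46, 6.94 and 6.93 on the acetone arrays. Acetone 1 was close to DMBA 1, and the difference of 0.62 did not pass (adjusted p = 0.0811); without DMBA 3 it was called at 0.57. Cyp1b1, the P450 best known for activating DMBA in mice, was at 10.56, 10.68 and 10.04 on the DMBA arrays, against 10.28, 10.36 and 10.43 on the acetone arrays, with DMBA 3 the lowest of all 6. Its difference was 0.07, and 0.26 without DMBA 3. Cyp1a1 (0.03) and the receptor gene Ahr (-0.03) lay near the lowest signals of the array.

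Conjugation and antioxidant genes gave few calls. Of 40 phase I and II genes, 0 were called, with 3 higher and 2 lower at an unadjusted p under 0.05. Ephx1, the microsomal epoxide hydrolase that acts on DMBA metabolites, was at 9.62, 9.47 and 9.90 on the DMBA arrays, against 9.18, 9.19 and 9.14 on the acetone arrays. Every DMBA array was higher, and the difference of 0.49 was just short of the threshold (adjusted p = 0.0588) and passed without DMBA 3 (0.37). Of 33 NRF2 and antioxidant genes, 2 rose, Nfe2l2 and the glutathione peroxidase Gpx2 (0.49), and 0 fell; 4 rose without DMBA 3, and 0 without DMBA 2 or any single acetone array. Nqo1, the quinone reductase, was at 0.20 and the plasma glutathione peroxidase Gpx3 at 0.54, neither past the test.

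Genes of antigen presentation by MHC class II had the highest share of called members of the 37 gene lists. These proteins show peptides to helper T cells, and Cd74 is their chaperone. Over all 17889 genes, 0.716% rose and 8006 had a difference above 0. Of 16 measured class II members, 6 rose and 0 fell, the median was 0.21, and all 16 had a difference above 0. With DMBA 3 left out the counts were the same, 6 and 0, with a median of 0.16; without acetone 2 only Cd74 was called, and without acetone 1 or acetone 3 there were 3 calls. Median scaling left 0 calls and a median of 0.17.

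H2-Ab1, the beta chain of the I-A molecule, was at 9.57, 9.63 and 10.15 on the DMBA arrays, against 8.65, 8.69 and 8.69 on the acetone arrays. DMBA 1 and 2 lay close together and DMBA 3 was the highest, while the acetone arrays spread over 0.05. The gene rose 2.15-fold (log2 1.10, SE 0.13, adjusted p = 0.00434), with a log2 difference of 0.92 without DMBA 3. Its other probes gave 0.78 and 1.10, both called over all probes.

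Cd74 was among the brighter genes, at 11.49, 11.49 and 11.71 on the DMBA arrays, against 10.71, 10.73 and 10.79 on the acetone arrays. All DMBA arrays were at least 0.70 above the acetone arrays, a 1.76-fold rise (log2 0.82, SE 0.08, adjusted p = 0.00195). Another probe gave 0.70, also called over all probes.

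H2-Eb1, the beta chain of I-E, was at 8.13, 8.49 and 8.93 on the DMBA arrays, against 7.53, 7.47 and 7.53 on the acetone arrays, and its 3 DMBA arrays spread over 0.80 log2 units. It rose by 1.01, and 0.80 without DMBA 3. The alpha chains H2-Ea (6.96, 6.98 and 7.03 on the DMBA arrays, against 6.17, 6.27 and 6.48 on the acetone arrays) and H2-Aa (6.90, 6.61 and 6.91 on the DMBA arrays, against 6.19, 6.31 and 6.39 on the acetone arrays) rose by 0.68 and 0.51. H2-DMa, a peptide exchange factor and the sixth called member, named here after its values were seen, rose by 0.47. Ciita, the master activator of these genes, was at 6.29, 6.44 and 6.43 on the DMBA arrays, against 6.17, 6.13 and 6.32 on the acetone arrays, and its arrays overlapped (0.18, adjusted p = 0.534).

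MHC class I and antigen processing genes had a median of 0.21 among 21 measured. Only the chaperone Calr was called with all arrays (1 higher, 0 lower), and 6 rose and 0 fell without DMBA 3, 4 and 0 without DMBA 1, and 0 and 0 without acetone 2. Tapbp, which loads peptides on class I molecules, was at 7.87, 8.36 and 8.84 on the DMBA arrays, against 7.54, 7.52 and 7.57 on the acetone arrays, a spread of 0.97 among DMBA arrays with no overlap (0.81, adjusted p = 0.0763). H2-T23, a non-classical class I molecule, was at 9.87, 9.98 and 10.52 on the DMBA arrays, against 9.50, 9.20 and 9.57 on the acetone arrays (0.70, adjusted p = 0.0709). Another of its probes gave 0.67 and was called over all probes. Class I genes are near-identical copies of each other, so signals among them may be shared.

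Complement genes rose at the head of the classical pathway. C1qb, a chain of the recognition molecule C1q, was at 8.78, 8.96 and 9.40 on the DMBA arrays, against 8.10, 8.17 and 8.24 on the acetone arrays, and C1qc at 9.01, 9.16 and 9.33 on the DMBA arrays, against 8.47, 8.50 and 8.58 on the acetone arrays. DMBA 3 was the highest for both and no arrays overlapped. They rose by 0.88 (adjusted p = 0.0122) and 0.65 (adjusted p = 0.00803), or 0.70 and 0.57 without DMBA 3. C1qa, the third chain, was at 0.39 (adjusted p = 0.188). C1s1, a protease of the classical pathway, was at 8.54, 8.56 and 8.39 on the DMBA arrays, against 8.06, 7.59 and 7.48 on the acetone arrays, where acetone 1 was nearest to the DMBA arrays. It rose by 0.79, and by 0.76 on another probe. In all 3 of 27 complement genes rose and 0 fell, with a median of 0.02; 5 rose without DMBA 3, 1 without acetone 1 or acetone 3, and 0 without acetone 2 or DMBA 2. C3 (-0.05), the central component, did not pass.

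Macrophages make C1q, and their markers were summed beside these genes. Over the 10 macrophage markers the summed linear level was 2301 to 2728 on DMBA arrays and 1773 to 1922 on acetone arrays. Without the C1q genes the other 7 summed to 1151 to 1186 on DMBA arrays and 971.9 to 1088 on acetone arrays. Cd68, a lysosomal protein of macrophages, was at 8.18, 8.43 and 8.76 on the DMBA arrays, against 7.96, 7.92 and 8.10 on the acetone arrays (0.46, adjusted p = 0.163). Aif1, a calcium-binding protein of macrophages, was higher on every DMBA array (0.26, adjusted p = 0.350), and the signalling adaptors Tyrobp and Fcer1g were at 0.12 and 0.09. The lineage receptor Csf1r (-0.06), the surface marker Adgre1 (-0.01) and the pan-leukocyte Ptprc (0.01, near the lowest signals) had overlapping arrays. Of 44 macrophage and leukocyte genes in the wider list, 0 were called with all arrays (6 higher and 2 lower at an unadjusted p under 0.05) and 3 higher without DMBA 3, among them Ms4a7 (0.60). The part of macrophage number in the class II and complement results was not tested.

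Interferon response genes gave 4 increases and 0 decreases among 46 measured (median 0.09). Rsad2, the antiviral protein viperin, was at 7.72, 7.67 and 7.55 on the DMBA arrays, against 6.96, 7.13 and 7.13 on the acetone arrays, and rose by 0.57 (adjusted p = 0.00902). Ifit3, which binds foreign RNA complexes, was at 9.05, 9.11 and 9.27 on the DMBA arrays, against 8.62, 8.59 and 8.63 on the acetone arrays, with the acetone arrays spread over 0.03, and rose by 0.53. Igtp, a GTPase against intracellular parasites, was at 9.06, 8.86 and 9.16 on the DMBA arrays, against 8.47, 8.60 and 8.46 on the acetone arrays, and rose by 0.52. Cxcl10, an interferon-induced chemokine for T cells, was at 8.71, 8.92 and 8.78 on the DMBA arrays, against 8.37, 8.07 and 8.28 on the acetone arrays, and rose by 0.56. None of these 4 genes had overlapping arrays, and DMBA 3 was the highest for Ifit3 and Igtp only. Without DMBA 3, 8 rose and 0 fell. The count was 0 without any single acetone array and 1 without DMBA 2. Ifit1 (-0.03) and Mx1 (-0.12), classic members, did not pass.

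The promoters of the 4 called interferon genes are shown because each holds the core of an interferon-stimulated response element, GAAA, then any 2 bases, then GAAA, searched on both strands. The windows are those of RefSeq on GRCm38.p6, and capitals mark the matches, which read TTTC, any 2 bases, TTTC where the element lies on the other strand. They lie at chr12:26456403-26456702 on the minus strand (Rsad2), chr19:34583279-34583578 on the plus strand (Ifit3), chr11:58199306-58199605 on the plus strand (Igtp) and chr5:92348840-92349139 on the minus strand (Cxcl10).
Rsad2: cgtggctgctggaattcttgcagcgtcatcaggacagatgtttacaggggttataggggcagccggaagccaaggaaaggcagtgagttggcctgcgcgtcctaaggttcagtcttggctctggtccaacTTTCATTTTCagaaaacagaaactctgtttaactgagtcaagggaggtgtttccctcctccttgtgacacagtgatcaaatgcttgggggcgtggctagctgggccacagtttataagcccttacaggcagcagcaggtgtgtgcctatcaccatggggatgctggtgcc
Ifit3: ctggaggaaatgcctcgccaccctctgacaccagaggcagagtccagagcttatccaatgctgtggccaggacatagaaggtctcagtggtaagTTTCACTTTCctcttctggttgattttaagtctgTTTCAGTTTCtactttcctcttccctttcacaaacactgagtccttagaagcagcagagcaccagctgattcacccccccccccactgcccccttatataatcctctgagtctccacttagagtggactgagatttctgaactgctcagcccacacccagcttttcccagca
Igtp: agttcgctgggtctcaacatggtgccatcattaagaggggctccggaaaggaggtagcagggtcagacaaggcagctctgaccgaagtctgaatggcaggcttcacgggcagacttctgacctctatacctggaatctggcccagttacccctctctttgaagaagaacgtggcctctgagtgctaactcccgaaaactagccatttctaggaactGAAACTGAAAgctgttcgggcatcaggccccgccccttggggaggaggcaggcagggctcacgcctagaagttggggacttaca
Cxcl10: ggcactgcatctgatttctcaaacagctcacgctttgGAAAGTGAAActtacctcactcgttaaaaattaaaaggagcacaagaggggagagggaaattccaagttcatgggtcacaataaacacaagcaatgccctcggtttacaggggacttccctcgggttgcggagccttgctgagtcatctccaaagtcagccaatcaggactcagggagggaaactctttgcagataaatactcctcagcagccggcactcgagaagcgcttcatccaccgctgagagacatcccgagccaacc
The matches begin at -120 in Rsad2, at -156 and -122 in Ifit3, at -34 in Igtp and at -213 in Cxcl10. The element was found in 3.44% of 32851 windows, in 4.07% of 13684 tested genes with a window, in 20 of 37 interferon list genes with a window, and in all 4 called ones. Most of the listed genes with the element were not called.

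Chemokine and inflammation genes gave 5 increases and 1 decrease among 49 (median 0.04). Cxcl13, which draws B cells, was at 7.31, 7.09 and 6.78 on the DMBA arrays, against 5.94, 6.18 and 5.98 on the acetone arrays, lowest on DMBA 3 among the DMBA arrays, and rose (log2 1.03, adjusted p = 0.00469). Its acetone arrays lay close to the lowest signals, so this size is not an exact fold: the difference in Cxcl13 was 0.77 with no background correction, 0.70 with the authors' deposited log2 values and 1.66 with an offset of 16. The chemokines Ccl5 (0.56), Ccl9 (0.46) and Ccl6 (0.45) rose beside Cxcl10. Cxcl15, a dim chemokine gene known from lung, fell by 0.48. Counts were 7 higher and 2 lower without DMBA 3, and 4 and 1 without DMBA 1, where Ccl5 lost its call. They were 1 and 0 without acetone 2 or DMBA 2, 1 and 1 without acetone 1, and 2 and 0 without acetone 3. Lcn2, an iron-scavenging acute phase protein, was at 11.82, 11.80 and 12.02 on the DMBA arrays, against 11.51, 11.47 and 11.54 on the acetone arrays (0.37, adjusted p = 0.0736). The inflammatory cytokines Il6 (0.04), Tnf (-0.04) and Il1b (0.09) did not pass.

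S100a8, a calcium-binding protein of granulocytes and stressed epithelium, was at 7.37, 7.46 and 7.10 on the DMBA arrays, against 6.28, 6.16 and 6.19 on the acetone arrays. The DMBA arrays were at least 0.81 above the acetone arrays, and the gene rose (log2 1.10, SE 0.10, adjusted p = 0.00123). With acetone arrays this dim the size is not an exact fold, and the difference in S100a8 was 0.78 with the authors' deposited log2 values and 1.63 with an offset of 16. Its partner S100a9 was dim, at 0.28 (adjusted p = 0.222). S100a8 was the only call among 25 lymphocyte and granulocyte genes, of which 2 rose and 2 fell without DMBA 3. The mast cell proteases Cpa3 (-0.54, adjusted p = 0.0640) and Mcpt4 (-0.34, adjusted p = 0.0811) were lower on every DMBA array and were called lower without DMBA 3.

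**Figure D3:**
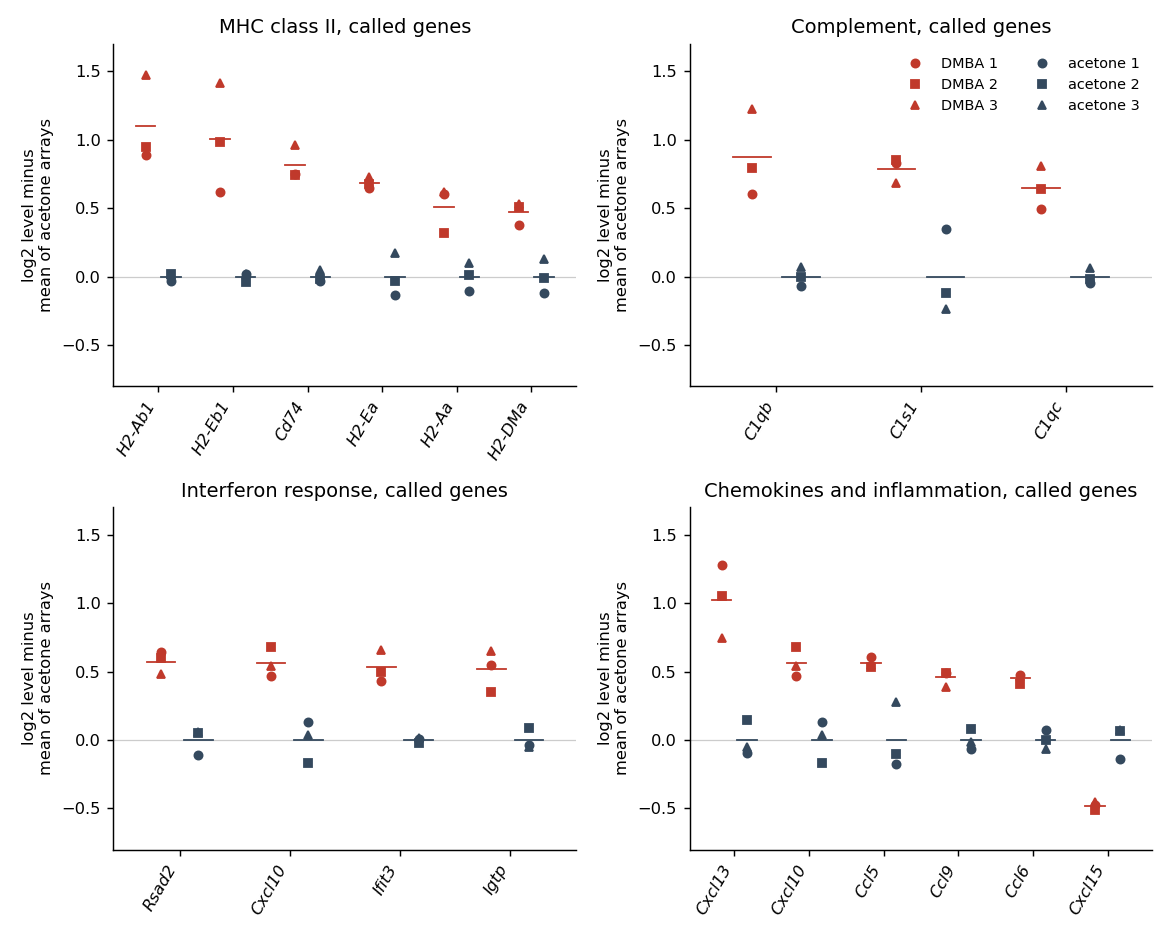
Log2 level of each called gene of the MHC class II, complement, interferon response and chemokine lists, minus its mean over the acetone arrays; DMBA arrays (red) stand left of acetone arrays (dark blue), symbols mark replicates and bars the group mean. DMBA and acetone arrays do not overlap for any gene, and Cxcl15 is the only decrease.

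Oocyte genes went both ways. Oosp1, an oocyte-secreted protein, was at 8.34, 8.03 and 7.90 on the DMBA arrays, against 8.69, 8.89 and 9.03 on the acetone arrays, with DMBA 1 nearest to the acetone arrays, and fell 1.72-fold (log2 -0.78, adjusted p = 0.0128). Bmp15, the growth factor by which oocytes act on granulosa cells, was at 9.20, 8.92 and 8.96 on the DMBA arrays, against 9.65, 9.71 and 9.39 on the acetone arrays and fell by 0.55 (adjusted p = 0.0368). Spin1, a spindle and chromatin protein abundant in oocytes, was at 7.07, 7.18 and 7.31 on the DMBA arrays, against 6.69, 6.47 and 6.39 on the acetone arrays and rose by 0.67. Of 14 genes in the list of oocyte-secreted and zona genes, the secreted Oosp1 and Bmp15 fell and Spin1, which is neither secreted nor a zona protein, rose. These counts of 1 higher and 2 lower (median -0.04) became 1 and 3 without DMBA 3, 1 and 1 without acetone 1, and 0 and 0 without DMBA 2, acetone 2 or acetone 3. Bmp15 was also the only call of 42 TGF-beta and BMP genes.

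Other defining oocyte transcripts did not pass. Gdf9, the partner of Bmp15, was bright at 12.61, 12.49 and 12.36 on the DMBA arrays, against 12.86, 12.61 and 12.52 on the acetone arrays, with overlapping arrays (-0.18, 95% interval -0.41 to 0.05). The zona pellucida genes Zp1 (0.16), Zp2 (0.06) and Zp3 (0.19) and the transcription factors Nobox (0.01) and Figla (-0.08) also overlapped. The germ cell genes Ddx4 (0.31, adjusted p = 0.140) and Lhx8 (0.26, adjusted p = 0.316) were higher on every DMBA array without passing. Dimmer Ddx4 probes gave 0.07 and 0.02. The summed level of 13 oocyte markers, which weighs bright genes such as Gdf9 most, was 25480 to 26360 on DMBA arrays. It was 24350 to 27070 on acetone arrays. Of 45 oocyte regulators and maternal factors 1 rose, Btg4 (0.49), an oocyte factor in maternal mRNA clearance, and 0 fell. The call of Btg4 was lost without DMBA 1, DMBA 2 or any single acetone array. Without DMBA 1 the list gave 0 higher and 1 lower. Without DMBA 3, 3 fell, among them Rfpl4, at 8.35, 8.07 and 7.80 on the DMBA arrays, against 8.60, 8.59 and 8.68 on the acetone arrays (-0.41 without DMBA 3). Of 35 meiosis and piRNA genes, 0 were called (0 higher and 3 lower at an unadjusted p under 0.05).

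Among granulosa genes, 0 of 35 rose and 1 fell, the oestrogen-responsive Greb1 (-0.43, adjusted p = 0.0483), with a median of -0.07; another Greb1 probe gave -0.35. The call of Greb1 was lost without each acetone array and without DMBA 1 or 2. Steroid enzymes of these cells were lower on every DMBA array without passing. They were Hsd17b1, which makes oestradiol, at 9.56, 9.34 and 9.19 on the DMBA arrays, against 9.72, 9.81 and 9.84 on the acetone arrays (-0.42, adjusted p = 0.0811), and the aromatase gene Cyp19a1 (-0.41, adjusted p = 0.0650). Foxl2, the transcription factor that keeps granulosa identity, was higher on every DMBA array (0.33, adjusted p = 0.105). Without DMBA 3, 1 rose (Foxl2, 0.32) and 4 fell, among them Hsd17b1 (-0.34) and Cyp19a1 (-0.37). Without DMBA 1, 0 rose and 3 fell. Amh (-0.10) and Inha (-0.01), products of growing follicles, had overlapping arrays.

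Matrix genes included several decreases. Tnc, the adhesion-modulating glycoprotein tenascin C, was at 7.09, 7.09 and 7.32 on the DMBA arrays, against 7.76, 7.69 and 7.78 on the acetone arrays and fell by 0.58 (adjusted p = 0.0115), and by 0.53 on its next brightest probe, with the 4 dimmest at -0.16, -0.15, 0.09 and 0.08. Col12a1, a fibril-associated collagen, fell by 0.44, while the elastic fibre protein Fbln2 rose by 0.50, with dimmer probes at -0.12 and 0.04. Of 40 stroma and collagen genes 1 rose and 2 fell (median -0.06), with 2 and 6 without DMBA 3 and 0 and 0 without DMBA 2 or any single acetone array. Without DMBA 1 the counts were 1 and 1, and Col12a1 lost its call. The decreases added without DMBA 3 included the collagens Col5a1 (-0.32) and Col15a1 (-0.46), with Col1a1 at -0.33 (adjusted p = 0.443).

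The basement membrane proteins perlecan and nidogen fell as well. Hspg2, the perlecan gene, was at 10.35, 10.31 and 10.30 on the DMBA arrays, against 11.01, 11.05 and 10.76 on the acetone arrays and fell 1.54-fold (log2 -0.62, adjusted p = 0.00902). Nid1 was at 9.09, 9.16 and 9.25 on the DMBA arrays, against 9.85, 9.75 and 9.70 on the acetone arrays and fell by 0.60. DMBA arrays of Hspg2 spread over 0.04, below every acetone array. Both calls were lost without acetone 1, acetone 2 or DMBA 2.

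Among 40 matrix proteases and inhibitors, 3 rose and 1 fell. The cathepsins Ctsl (0.48) and Ctsk (0.40) and the macrophage elastase Mmp12 (0.40) rose. The gelatinase Mmp9 was at 7.83, 7.63 and 7.75 on the DMBA arrays, against 8.64, 8.47 and 8.32 on the acetone arrays and fell by 0.74 (adjusted p = 0.00567). Mmp9 was called in 5 of the 6 fits that left out an array, and the 3 increases were lost without acetone 1, 2 or 3 or DMBA 2. Without DMBA 1, only the increase of Ctsl was called. Surface epithelium gave 1 increase in 23 genes, the uroplakin Upk3b (0.48), and its cytokeratin Krt18 stood at -0.27 (adjusted p = 0.152). Sfrp1, a secreted WNT inhibitor, fell by 0.53 and was the only call of 40 WNT genes. Actg2, the smooth muscle gamma actin, fell by 0.50, alone of 16 smooth muscle genes. Of the calls of Upk3b, Sfrp1 and Actg2, 0 were kept without DMBA 2 or any single acetone array. The call of Actg2 was also lost without DMBA 1.

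**Figure D4:**
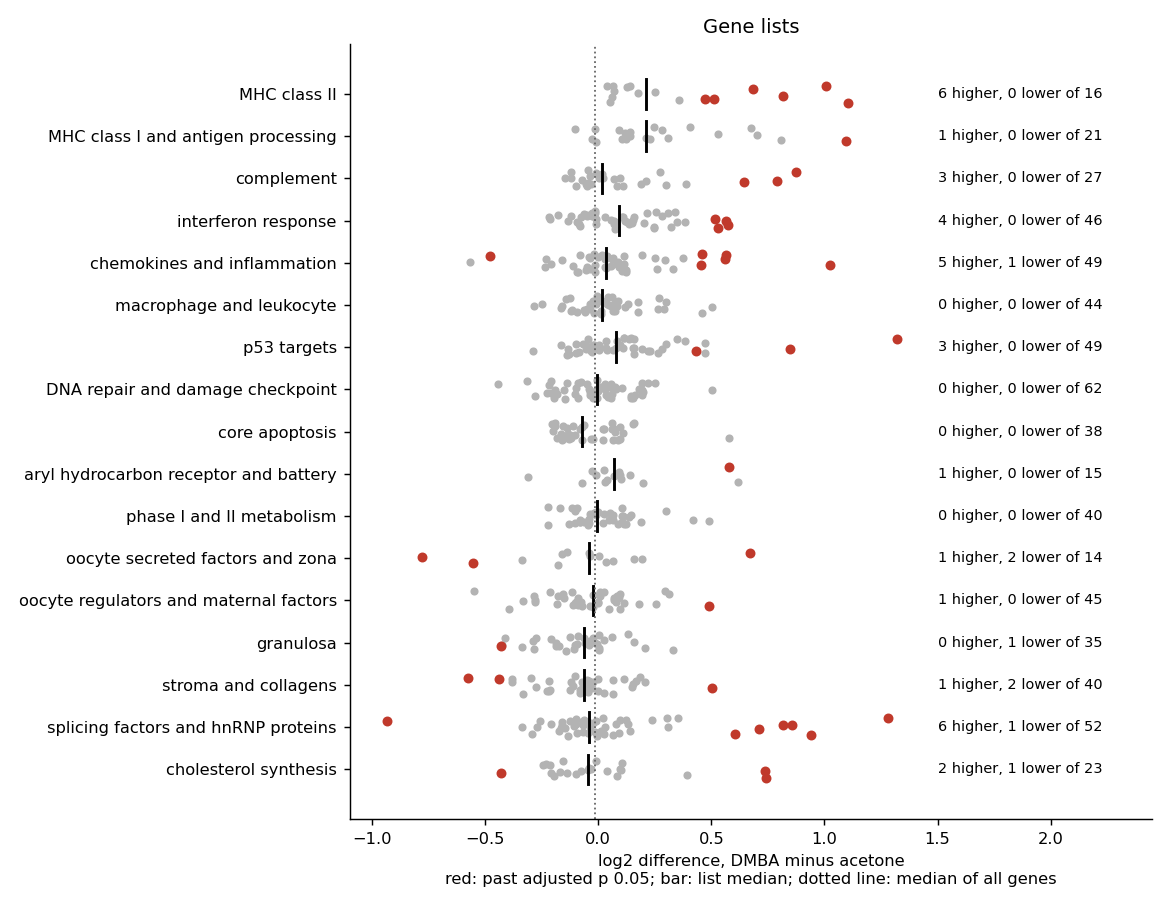
Log2 differences (DMBA minus acetone) of the measured members of 17 gene lists, with called members in red, the list median as a bar and the median of all genes (-0.01) as a dotted line. Class II genes all lie above 0, the class I list shares their median of 0.21, and the medians of the other 15 lists lie between -0.07 and 0.09.

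Genes for RNA-binding and splicing proteins held some of the largest increases. Hnrnpa2b1, a nuclear RNA-binding protein, was at 10.44, 10.25 and 10.50 on the DMBA arrays, against 9.36, 9.08 and 8.91 on the acetone arrays. Every DMBA array was at least 0.89 above the acetone arrays, a 2.43-fold rise (log2 1.28, SE 0.12, adjusted p = 0.00123). The helicase Ddx5 was at 7.40, 7.22 and 7.35 on the DMBA arrays, against 6.55, 6.37 and 6.22 on the acetone arrays and rose by 0.94. Hnrnpk, another nuclear RNA-binding protein, rose by 0.82, with Snrnp70 (0.71) and Srsf5 (0.60) named after their values were seen.

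Taf15, an RNA-binding protein of the transcription machinery, went the other way. It was at 8.56, 8.08 and 7.72 on the DMBA arrays, against 9.12, 8.86 and 9.19 on the acetone arrays, with a spread of 0.84 among DMBA arrays, and fell by 0.94 (adjusted p = 0.0335), or to -0.73 without DMBA 3. In all 6 of 52 such genes rose and 1 fell, while the list median was -0.04. Counts were 8 and 2 without DMBA 3, 2 and 0 without acetone 2, 3 and 0 without acetone 3 or DMBA 2, and 4 and 0 without acetone 1.

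Probes of one gene did not always move together. Each may report different transcripts, but the cause was not tested. Other probes of Hnrnpa2b1 gave -0.06 and 0.02, those of Hnrnpk -0.09 and -0.06, and that of Ddx5 -0.05, at lower signals. Other probes of Hnrnph1 gave 0.52, 0.40, 0.51 and 0.19, beside 0.31 for the probe tested. Bright probes differed too. A probe of the actin gene Actb at percentile 98.9 of all probes gave -1.17 and was called over all probes. Dimmer Actb probes gave 0.35, -0.67 and -0.57. The tested Actb probe was not called and ranged from -0.005 to 0.20 with 1 array left out. Dimmer probes of Nfe2l2 and Ifit3 gave 0.01 and 0.21, and those of Upk3b gave 0.37 and 0.31, none called. That Nfe2l2 probe was also near the lowest signals, at percentile 22.5. Among genes not called with all arrays, other probes gave 0.26 for Trp53inp1, 0.28 for Tapbp, 0.44 and 0.36 for Tnfrsf1a, 0.13 and 0.01 for Ugt1a6a, -0.35 for Rfpl4, and -0.45 and -0.03 for Cpa3. Over the 186 called genes, 65 had 111 other probes. Of those, 63 lay above the median level, 46 of the 63 had the sign of the tested probe and 12 were called over all probes.

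Translation factors gave 2 increases and 0 decreases in 35 genes. Eif4b, which helps the cap-bound helicase, was at 8.34, 8.24 and 8.32 on the DMBA arrays, against 7.58, 7.59 and 7.51 on the acetone arrays and rose by 0.74; it was called in all 6 fits that left out an array. Eif4g2, a scaffold for cap-independent initiation, was at 8.46, 8.49 and 8.38 on the DMBA arrays, against 7.73, 7.32 and 6.92 on the acetone arrays. It rose by 1.12, with the DMBA arrays spread over 0.11 and the acetone arrays over 0.81, and lost the call without acetone 2 or DMBA 2. A dimmer Eif4g2 probe, above the median of all probes, gave 0.01 (adjusted p = 0.991). Without DMBA 3, 4 translation factors rose. Pabpc1, the poly(A)-binding protein, was at 0.27 on the tested probe (adjusted p = 0.543), while dimmer probes gave 0.99 and 0.55, both called over all probes. Of 56 ribosomal protein genes and 63 oxidative phosphorylation genes, 0 were called in each (2 and 5 higher, 5 and 3 lower at an unadjusted p under 0.05).

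Of 32 chaperone genes, 2 rose and 0 fell. Hspa8, the constitutive cytosolic chaperone, was at 12.32, 12.35 and 12.57 on the DMBA arrays, against 11.68, 11.21 and 11.09 on the acetone arrays and rose by 1.09. Calr, a chaperone of the endoplasmic reticulum, was at 10.04, 10.54 and 10.35 on the DMBA arrays, against 9.41, 9.12 and 9.11 on the acetone arrays and rose by 1.10. Acetone 1 was the highest acetone array for both, and both calls were lost without acetone 2.

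Metabolic lists gave scattered calls. Hif1a, the oxygen-sensing transcription factor, was at 8.56, 8.47 and 8.20 on the DMBA arrays, against 7.67, 7.53 and 7.22 on the acetone arrays and rose by 0.94 (adjusted p = 0.00567), alone of 33 hypoxia and glycolysis genes, whose median was 0.14. The call was lost without acetone 2 or DMBA 2. Without DMBA 3, 6 of these rose, among them the enolase Eno2 (0.33) and the glucose transporter Slc2a3 (0.31). Adss, which makes AMP precursors, was at 8.76, 8.55 and 8.48 on the DMBA arrays, against 7.68, 7.42 and 7.23 on the acetone arrays and rose by 1.15, alone of 21 purine genes.

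In cholesterol synthesis 2 of 23 genes rose and 1 fell. Nsdhl, a sterol-making enzyme, rose by 0.74, with other probes at 0.71, 0.44 and -0.01. Insig1, which holds back sterol synthesis, rose by 0.74, with other probes at 0.43, 0.64 and 0.02. Srebf2, the transcription factor of the pathway, was at 8.49, 8.50 and 8.50 on the DMBA arrays, against 8.86, 8.95 and 8.98 on the acetone arrays, with the DMBA arrays spread over 0.01, and fell by 0.43. None of these 3 was called without acetone 1, 2 or 3.

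Beyond the lists, large increases included those of Kctd14, Tsc22d1, Nipsnap2, Slc25a17 and Ly6a. Kctd14 was at 8.81, 8.76 and 9.18 on the DMBA arrays, against 7.84, 7.42 and 7.89 on the acetone arrays and rose by 1.20, with another probe at 0.49 that was called over all probes. Tsc22d1, a TGF-beta-induced transcription factor, was at 11.34, 11.42 and 11.60 on the DMBA arrays, against 10.64, 10.07 and 10.15 on the acetone arrays and rose by 1.17, a call lost without acetone 2, while a dimmer Tsc22d1 probe gave 0.10 (adjusted p = 0.801). Ly6a, the stem cell antigen Sca-1 and an interferon-inducible gene in mice, was at 9.32, 9.32 and 9.54 on the DMBA arrays, against 8.36, 8.39 and 8.40 on the acetone arrays. Its acetone arrays spread over 0.04, and its rise of 1.01 (SE 0.08, adjusted p = 0.000926) was called in all 6 fits that left out an array. Slc25a17, a peroxisomal transporter, rose by 1.11, and Nipsnap2, a mitochondrial protein, by 1.12.

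The largest decrease of all was that of Padi1, an enzyme that converts arginine to citrulline in proteins. It was at 7.49, 7.40 and 7.76 on the DMBA arrays, against 9.22, 9.16 and 9.36 on the acetone arrays, so the groups were at least 1.41 apart. It fell 3.25-fold (log2 -1.70, SE 0.10, adjusted p = 9.16e-05) and was called under median scaling too. Tenm4, a teneurin cell-surface protein, was at 9.49, 9.85 and 9.83 on the DMBA arrays, against 10.99, 10.87 and 10.96 on the acetone arrays and fell 2.32-fold (log2 -1.21, adjusted p = 0.000926). Dynlrb2, a dynein light chain of cilia, was dim at 6.05, 6.03 and 6.18 on the DMBA arrays, against 6.77, 6.91 and 7.03 on the acetone arrays and fell (log2 -0.82). Its DMBA arrays lay close to the lowest signals, so this size is not an exact fold: the difference in Dynlrb2 was -0.56 with the authors' deposited log2 values and -1.34 with an offset of 16.

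Other decreases of this rank were smaller. Xist, the RNA that silences an X chromosome, was at 8.53, 8.62 and 8.36 on the DMBA arrays, against 9.16, 9.26 and 9.10 on the acetone arrays and fell by 0.67, and by 0.59 on another probe; the call was lost without acetone 1 or acetone 2. Sdc4, a heparan sulphate proteoglycan, fell by 0.68, the prostaglandin transporter Slco2a1 by 0.63, the serine protease Tmprss2 by 0.63, the GABA receptor subunit Gabrp by 0.70, Ttc27 by 0.75 and Sectm1b by 0.73. A dimmer Gabrp probe gave -0.11. The acetone arrays of Sdc4 spread over 0.52 and those of Tmprss2 over 0.41. Only 4 genes called lower kept their call in all 6 fits that left out an array, Padi1, Tenm4 and Dynlrb2 among them. Most genes named in this paragraph therefore lost the call in at least 1 such fit.

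**Figure D5:**
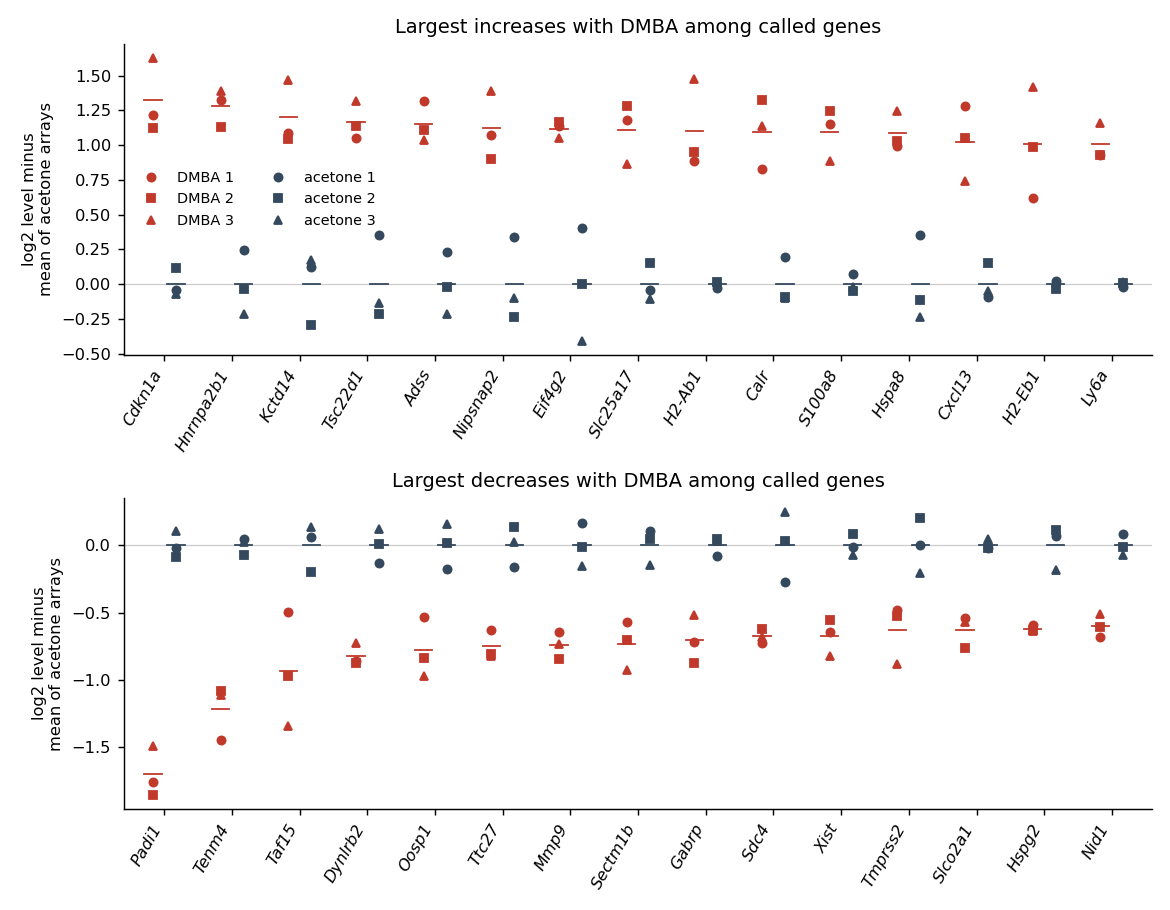
Log2 level of the 15 largest increases (top) and 15 largest decreases (bottom) among called genes with a gene symbol, minus the mean over acetone arrays; DMBA arrays (red) stand left of acetone arrays (dark blue), symbols mark replicates and bars the group mean. Groups do not overlap for any of the 30 genes, and DMBA 3 is the highest array for Cdkn1a, Hnrnpa2b1, Kctd14, Tsc22d1, Nipsnap2, H2-Ab1, Hspa8, H2-Eb1 and Ly6a.

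Leaving out DMBA 3 added 634 genes to the calls. Among the largest additions was Tgoln1, a Golgi membrane protein, at 8.20, 8.09 and 7.56 on the DMBA arrays, against 7.43, 7.37 and 7.11 on the acetone arrays, where DMBA 3 lay nearest to the acetone arrays (0.65 with all arrays, 0.84 without DMBA 3). Ccnd2, the cyclin of growing granulosa cells, was at 10.02, 9.95 and 9.38 on the DMBA arrays, against 9.39, 9.10 and 9.53 on the acetone arrays, and Cav1, the caveolar coat protein, at 10.38, 10.18 and 9.52 on the DMBA arrays, against 9.61, 9.70 and 9.65 on the acetone arrays. In both DMBA 3 fell within the acetone range or below it, and without it they rose by 0.65 and 0.62. Additions that fell included Pik3cd, a leukocyte PI3-kinase subunit (6.79, 6.98 and 7.41 on the DMBA arrays, against 7.56, 7.59 and 7.73 on the acetone arrays; -0.74 without DMBA 3), the ETS factor Etv4 (-0.65), the neurotrophin receptor Ngfr (-0.59) and the laminin chain Lamb2 (-0.53). Nedd4, a ubiquitin ligase, was at 8.57, 8.65 and 9.97 on the DMBA arrays, against 8.96, 8.92 and 9.11 on the acetone arrays: its difference was 0.07 with DMBA 3 and -0.39 without it (adjusted p = 0.00900).

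Several lists held no called gene in the comparison of all arrays. They were theca and steroid synthesis (25 genes), PI3K, AKT and mTOR signalling (28), immediate early genes (24), endothelial genes (22) and erythroid genes (11), with the repair, apoptosis, phase I and II, meiosis, macrophage, ribosomal and oxidative phosphorylation lists above. Fos, an immediate early factor, was at 8.26, 8.11 and 7.72 on the DMBA arrays, against 7.81, 7.68 and 7.65 on the acetone arrays, with DMBA 3 inside the acetone range (0.32; 0.47 without DMBA 3, called). Brca2 and Mtor stood at -0.32 and -0.27, neither past the test. Foxo3 (0.04) and Akt1 (0.03), which hold and release resting follicles, did not pass, at levels below the median of all genes.

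The authors' deposited table lists 110 probes for DMBA, 96 higher and 14 lower. They stand for 98 genes, of which 65 were called here. The listing and the calls here followed unlike criteria, so this overlap is no measure of agreement. Mcm7, with a deposited DMBA over acetone ratio of 1.39, was called here and is not listed. Tapbp, with a ratio of 1.63, is listed and was not called here. Genes were matched by name, so a listed probe need not be the probe tested here. In the authors' deposited table the linear ratio for Cdkn1a, turned to DMBA over acetone, was 2.44, for H2-Ab1 2.09, for Cd74 1.79 and for Padi1 0.347.

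The 3 arrays with BaP at 1 uM were set against the same 3 acetone arrays, at an unmatched dose, so the values stand side by side and are not compared. H2-Ab1 was at 1.10 with DMBA and at -0.34 with BaP, and Cd74 at 0.82 with DMBA and at -0.57 with BaP. H2-Eb1 was at 1.01 with DMBA and at -0.16 with BaP, and H2-Ea at 0.68 with DMBA and at 1.35 with BaP. For C1qb and C1qc the differences were 0.88 and 0.65 with DMBA, and -0.40 and -0.48 with BaP. The p53 target Cdkn1a was at 1.32 with DMBA and at 1.26 with BaP, and Padi1 at -1.70 with DMBA and at -2.90 with BaP. Ly6a was at 1.01 with DMBA and at 0.47 with BaP. The class II list had a median of 0.21 with DMBA and -0.02 with BaP.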

How the data were processed

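Expression was measured on Illumina mouse Ref-8 v2 beadchips, with 1 array per sample. The deposited intensity values are non-normalised probe signals on a linear scale, per the file headers, and no source says whether background was subtracted before deposit. The deposited log2 values were normalised by the authors so that arrays share 1 distribution. Per the submitters' processing notes, lumi was used. The authors' comparison gives a linear ratio of acetone over DMBA and an unadjusted p-value per probe, per the file headers. Gene names came from that comparison: 25649 of 25697 probes were paired with it by matching differences of group means to the log2 of the ratio (tolerance 0.0001), and 48 were left out. Symbols were updated through RefSeq accessions and synonyms.

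Signals were background-corrected with normexp (offset 50), quantile-normalised over the 9 arrays and taken to log2. The brightest probe stood for each gene. limma 3.58.1 in R 4.3.3 fitted DMBA and acetone arrays (lmFit, eBayes), with Benjamini-Hochberg adjustment over 17889 genes, a threshold of 0.05 and 95% intervals. The fit was tested on simulated data. Slide and scan date are not given in the files. The number of arrays limits the precision. The genes named were the 15 largest called increases and decreases, up to 5 called and 3 further members of each list, the 10 largest increases and decreases called only without DMBA 3, the 8 highest and lowest on DMBA 3, a panel of 32 genes, and other probes of these. Clone and predicted names were left out, except within lists. Adgre1, Aif1, C3, Ccl6, Col1a1, Csf1r, Fcer1g, Figla, H2-DMa, Ifit1, Il1b, Il6, Inha, Lhx8, Mx1, Ptprc, Snrnp70, Srsf5, Tnf, Tyrobp and Zp2 were named after their values were seen. The values of a few members of the lists are not reported here. Members and lists were chosen with earlier results of these data known. Alternatives were other normalisation, background correction, probe choice, filter and weights, the replicate number as a block, and each array left out. Deviations of same-numbered arrays correlated at 0.0553, 0.0514 and 0.139, and those of different-numbered arrays at -0.146 to 0.111. Whether the replicate numbers pair the arrays cannot be told from these values.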

Additional observations from a re-analysis of the deposited data

How the results depend on the processing

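The 186 calls depended on the processing. All 186 genes kept their sign in the 6 fits that left out an array, which the lack of overlap between their groups fixes in advance. Called genes numbered 3 with median scaling (53 without DMBA 3 as well), 98 with the authors' deposited log2 values (513 without DMBA 3), 116 with no background correction, 297 with all 9 arrays in 1 fit and 900 with array weights, where DMBA 3 had a weight of 0.356. The alternatives that combined another setting with the loss of DMBA 3 were chosen after seeing the data. Leaving out 1 array gave 22 to 820 calls. The counts were 215 with quantile normalisation over the 6 arrays, 135 with an offset of 16, 141 with the mean of all probes, 129 when genes under the median level were left out and 270 over all probes. With the replicate block the count was 210, of which 164 were among the 186. Whether the replicate numbers pair the arrays cannot be told. Nedd4 turned to -0.39 without DMBA 3 (adjusted p = 0.00900), and to -0.37 with the authors' values without DMBA 3, against 0.07 with all arrays, and ranged from -0.39 to 0.31 with 1 array left out. The cause of these changes was not tested. Over the gene lists, calls of both directions together moved as follows, and lists not named kept a count within 1.5 times that with the usual processing; with median scaling every list had 0. With array weights, calls numbered 1 for core apoptosis, PI3K, ribosomal and erythroid, 2 for aryl hydrocarbon receptor, meiosis, theca, endothelial, WNT and TGF-beta, 3 for phase I and II, immediate early and oxidative phosphorylation, 4 for surface epithelium, macrophages, hypoxia, translation and smooth muscle. It also gave 5 for oocyte regulators, stroma, lymphocytes and cell cycle, 6 for DNA repair, 7 for MHC class I and interferon, 8 for granulosa and proteases. There were further 9 for p53 targets, 11 for splicing. Quantile normalisation over 6 arrays gave 1 for DNA repair and macrophages, 2 for surface epithelium and lymphocytes. All 9 arrays in 1 fit gave 1 for core apoptosis, phase I and II, macrophages, oxidative phosphorylation, endothelial and erythroid, 2 for aryl hydrocarbon receptor, oocyte regulators, granulosa, lymphocytes and hypoxia, 3 for DNA repair and surface epithelium, 4 for MHC class I. The authors' deposited log2 values gave 0 for oocyte regulators, granulosa, surface epithelium, smooth muscle, WNT and TGF-beta, 1 for NRF2, oocyte secreted factors, proteases, complement and cholesterol, 2 for interferon, 3 for MHC class II, chemokines and splicing. No background correction gave 0 for oocyte regulators, granulosa, surface epithelium, smooth muscle, WNT and TGF-beta, 1 for NRF2 and complement, 2 for proteases, 3 for MHC class II and splicing. An offset of 16 gave 0 for oocyte regulators, surface epithelium, WNT and TGF-beta, 1 for stroma, proteases and interferon, 3 for chemokines. The mean of all probes gave 0 for aryl hydrocarbon receptor, oocyte regulators, surface epithelium and TGF-beta, 1 for NRF2 and stroma, 2 for MHC class I, 3 for splicing. Among genes above the median level there were 0 for oocyte regulators, granulosa and surface epithelium, 1 for NRF2, 2 for proteases. The replicate block gave 0 for surface epithelium, 1 for DNA repair, 2 for proteases and lymphocytes, 4 for MHC class I. Median scaling without DMBA 3 gave 0 for oocyte secreted factors, oocyte regulators, granulosa, stroma, proteases, surface epithelium, interferon, cholesterol, smooth muscle, WNT and TGF-beta, 1 for p53 targets, NRF2, complement and chemokines, 3 for MHC class II, 4 for splicing. The authors' values without DMBA 3 gave 1 for core apoptosis, phase I and II, PI3K, endothelial and erythroid, 2 for surface epithelium, macrophages, immediate early, ribosomal, oxidative phosphorylation, smooth muscle and TGF-beta, 3 for oocyte regulators and granulosa, 4 for DNA repair, NRF2, MHC class I, hypoxia and translation. It also gave 6 for stroma, 7 for proteases and interferon, 8 for p53 targets. Leaving out 1 array in turn gave 0 to 1 for core apoptosis, phase I and II, meiosis, PI3K, ribosomal, endothelial, erythroid and TGF-beta, 0 to 2 for aryl hydrocarbon receptor, theca, immediate early, chaperones and WNT, 0 to 3 for surface epithelium, macrophages and oxidative phosphorylation, 0 to 4 for NRF2, oocyte secreted factors, oocyte regulators, cholesterol and smooth muscle, 0 to 5 for granulosa and complement. The range was 0 to 6 for MHC class I and hypoxia, 0 to 7 for DNA repair, 0 to 8 for stroma, proteases and interferon, 1 in each for purines, 1 to 4 for lymphocytes and translation. The range was 1 to 6 for MHC class II, 1 to 8 for p53 targets, 1 to 9 for chemokines, 2 to 6 for cell cycle, 2 to 10 for splicing. Dim probes near the lowest signals, such as those of Cyp1a1 and Ahr, limit what could be detected.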

Other observations

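Some of the called genes lay outside the gene lists, and those named here were chosen after their values were seen. Apoe, a lipid carrier that macrophages also make, rose by 0.70 and Apoc1, another apolipoprotein, by 0.59. The activating antibody receptor Fcgr4 rose by 0.67, the lectin Lgals3 by 0.60, and the platelet and macrophage chemokine Pf4 by 0.57. The chitinase-like Chil1 rose by 0.73 and the peptidoglycan-binding Pglyrp1 by 0.81. These are picked genes: of the 44 measured genes in the macrophage and leukocyte list, 0 were called, with a median of 0.02. Of all 186 called genes, 165 lost the call in at least 1 fit that left out an array.

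The imprinted genes H19 and Igf2, neighbours that share an imprinting control region, rose by 0.76 and 0.45. Class I relatives H2-Q5 (0.71), H2-K2 (0.63) and Gm8909 (1.06) rose, and as near-identical copies they may share signal with other class I genes. Among decreases, Lamc1, a laminin chain of basement membranes, fell by 0.43. Padi2, a relative of Padi1, fell by 0.50, the mast cell tryptase Tpsab1 by 0.44, the secreted glycoprotein Reln by 0.59, the cartilage collagen Col9a2 by 0.58, the arginase Arg1 by 0.56 and the homeobox gene Rhox5 by 0.49.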
